A study of Caenorhabditis elegans with 12 samples.

Results

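The genes described here are the fatty acid desaturases fat-1 to fat-7 and the elongases elo-1, elo-2 and elo-5 of Caenorhabditis elegans. They were chosen by gene symbol in the array's annotation table, which gave 1 probe set for each of the 10 genes, out of 22625 on the array, and all 10 passed the filter on low values (a log2 value above 4 on at least 3 arrays). Whole wild-type (N2) worms were measured on 12 Affymetrix 3' expression arrays, 3 for each of 4 RNA interference (RNAi) groups. All groups were fed E. coli HT115 from day 1 of adulthood for 3 days, were labelled day 3 adults, and had eggs and larvae washed off. The vector held no insert in the empty vector (control) group and was directed against hsp-6 alone, against both hsp-6 and hsf-1 (the hsp-6 plus hsf-1 group), or against both hsp-6 and dve-1 (labelled hsp-6;dve-1). HSP-6 is the Hsp70 chaperone of the mitochondrion. HSF-1 drives the heat shock response. DVE-1 is a homeodomain protein that acts in the unfolded protein response of the mitochondrion. The comparisons address which changes after loss of hsp-6 need hsf-1 or dve-1. RNAi by feeding lowers a transcript in whole worms and does not delete the gene, and it was given only in adulthood.

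Desaturases put double bonds into fatty acids, and elongases lengthen the chain by adding carbon units from malonyl-CoA. In C. elegans FAT-5 acts on palmitic acid, while FAT-6 and FAT-7 make oleic acid from stearic acid. FAT-2 turns oleic into linoleic acid, FAT-1 turns omega-6 into omega-3 fatty acids, and FAT-3, ELO-1 and FAT-4 act in turn to build the long polyunsaturated fatty acids. ELO-2 lengthens palmitic acid, and ELO-5 makes monomethyl branched-chain fatty acids. The transcription factors SBP-1, NHR-49 and NHR-80 and the Mediator subunit MDT-15 are known to drive expression of the genes for monounsaturated fatty acid synthesis, which are active mainly in the intestine.

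The values are log2 GCRMA levels, on which 1 unit is a doubling, and levels of different genes are not compared, since each probe set has its own response. Groups were compared with limma, fitted over all 12057 tested probe sets, and changes with a Benjamini-Hochberg adjusted p below 0.05 were called. Precision is limited by the number of arrays. Nothing in the labels shows that replicates came from separate cultures, so p-values measure only the spread between these samples. In whole worms, fewer cells of a type and less RNA per cell cannot be told apart.

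The RNAi targets bear on how the groups can be read. The hsp-6 transcript averaged 11.12 ± 0.17 in the control group, 6.84 ± 0.21 after hsp-6 RNAi, 9.63 ± 0.41 in the hsp-6 plus hsf-1 arrays and 9.82 ± 0.60 in the dve-1-labelled arrays (mean ± SD, n = 3 each). Both double RNAi groups thus kept more hsp-6 transcript than hsp-6 RNAi alone, so that added RNAi and weaker hsp-6 knockdown cannot be told apart in their changes against hsp-6 RNAi. hsf-1 averaged 6.92 ± 0.29 in the hsp-6 plus hsf-1 group and 7.82 ± 0.17 with hsp-6 RNAi (limma adjusted p = 0.122). In the control group it averaged 8.57 ± 0.28, above hsp-6 RNAi without overlap (limma adjusted p = 0.214). The other hsf-1 probe set averaged 6.65 in the hsp-6 plus hsf-1 group, 7.43 with hsp-6 RNAi (limma adjusted p = 0.263) and 8.25 in the control group. dve-1 went against the label, with a mean of 8.06 ± 0.88 where dve-1 RNAi is labelled and 5.53 ± 0.39 with hsp-6 RNAi (limma adjusted p = 0.0297 for the higher level), so that group is called the dve-1-labelled arrays here. The same probe set averaged 6.76 ± 1.24 in the hsp-6 plus hsf-1 group, where replicate 3 read 8.18. The other dve-1 probe set averaged 4.85 in the dve-1-labelled arrays and 4.61 with hsp-6 RNAi (limma adjusted p = 0.625). Replicates 1 and 3 of hsp-6 RNAi were closer than any other pair, with a root mean square difference of 0.21 over the tested probe sets against 0.45 for the next pair. That next pair crossed groups, joining replicate 1 of the hsp-6 plus hsf-1 group and replicate 1 of the dve-1-labelled arrays. Also close across these groups were hsp-6 plus hsf-1 replicate 3 and dve-1-labelled replicate 2 (0.53), and replicate 2 and dve-1-labelled replicate 3 (0.55). The first principal component held 56.5% of the variance, on which hsp-6 plus hsf-1 replicate 3 and dve-1-labelled replicate 2 lay farthest out. Results that rest on any of these arrays are given with and without them.

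fat-5 was the one member that rose with hsp-6 RNAi and fell in both double RNAi groups. The control arrays read 9.68, 10.08 and 9.27, and the hsp-6 RNAi arrays 11.24, 10.78 and 11.24. The hsp-6 plus hsf-1 arrays read 9.26, 9.29 and 9.3, and the dve-1-labelled arrays read 8.92, 8.38 and 8.99. All 3 hsp-6 RNAi arrays lay above all 9 others, and no array of one double RNAi group overlapped the other group. The rise with hsp-6 RNAi was 1.41 on the log2 scale (SE 0.24, 2.66-fold, n = 3 a group, limma adjusted p = 0.0117). Against hsp-6 RNAi, fat-5 was lower by 3.49-fold in the hsp-6 plus hsf-1 arrays (log2 difference -1.80, SE 0.24, limma adjusted p = 0.00604). In the dve-1-labelled arrays the log2 difference of fat-5 was -2.32 (SE 0.24, 95% interval -2.85 to -1.80, limma adjusted p = 0.000948).

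**Figure D1:**
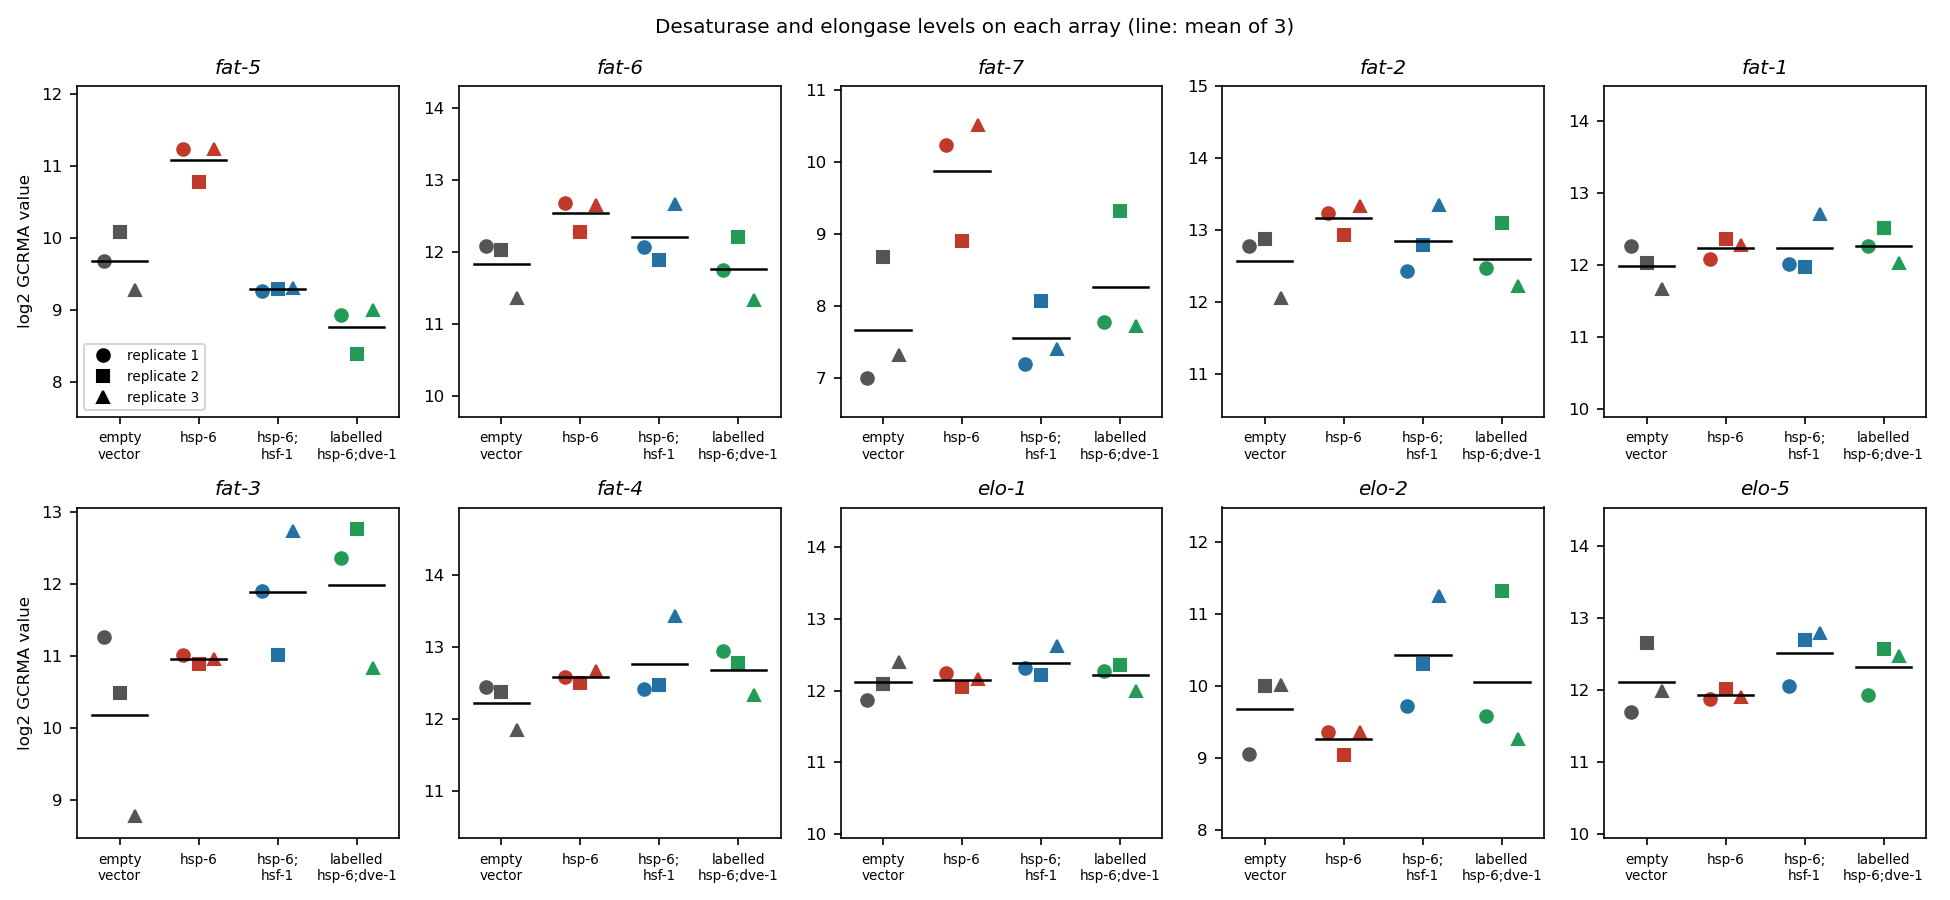
Levels of the 10 genes on each of the 12 arrays (y axis, log2 GCRMA value; each panel spans the same number of units), by RNAi group; symbols mark the replicate number and lines the mean of 3 arrays. For fat-5 the 3 hsp-6 RNAi arrays sit between 10.78 and 11.24, above all others, while fat-3 and elo-2 are highest on 1 array of each double RNAi group.

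Both double RNAi groups averaged below empty vector for fat-5, and neither difference passed the test. Against empty vector the log2 difference of fat-5 was -0.39 in the hsp-6 plus hsf-1 arrays (SE 0.24, 95% interval -0.92 to 0.13, limma adjusted p = 0.259). It was -0.91 in the dve-1-labelled arrays (SE 0.24, 95% interval -1.44 to -0.39, limma adjusted p = 0.0632), where all 3 arrays lay below all 3 empty vector arrays. Set against each other, the double RNAi groups differed by -0.52 (dve-1-labelled minus hsp-6 plus hsf-1, 95% interval -1.04 to 0.01, limma adjusted p = 1). The order of the means was thus dve-1-labelled, hsp-6 plus hsf-1, empty vector and hsp-6 RNAi, and only the step from empty vector to hsp-6 RNAi passed the test between neighbours. The intervals here and below are limma's, for 1 gene at a time and not adjusted for the number of genes. These comparisons share arrays, so the rise and the falls of fat-5 are not independent of each other.

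The calls on fat-5 differed in how far they rested on single arrays. The fall in the dve-1-labelled arrays was called under all 23 alternative settings, with adjusted p from 0.000561 to 0.0117. The rise with hsp-6 RNAi was not called without hsp-6 RNAi replicate 1 (1.33, limma adjusted p = 0.0695) or replicate 3 (1.33, 0.0676), or with these alike arrays averaged into 1 (1.33, 0.0644). The difference between the dve-1-labelled arrays and empty vector became a call with array medians set equal (-0.92, limma adjusted p = 0.0460), without hsp-6 plus hsf-1 replicate 3 (-0.91, 0.0487) and without dve-1-labelled replicate 3 (-1.02, 0.0446). The fall in the hsp-6 plus hsf-1 arrays was not called without hsp-6 RNAi replicate 1 (-1.73, limma adjusted p = 0.0522) or replicate 3 (-1.73, 0.0528).

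fat-7 was also highest with hsp-6 RNAi, with a wider spread between arrays. It read 7, 8.68 and 7.31 in the control arrays and 10.23, 8.9 and 10.51 in the hsp-6 RNAi arrays. The levels were 7.19, 8.07 and 7.4 in the hsp-6 plus hsf-1 arrays, and 7.77, 9.31 and 7.72 in the dve-1-labelled arrays. The hsp-6 RNAi arrays lay above all arrays of the empty vector and hsp-6 plus hsf-1 groups, while dve-1-labelled replicate 2 overlapped them. The fall in the hsp-6 plus hsf-1 arrays was called (log2 difference -2.32, SE 0.57, 5.01-fold, limma adjusted p = 0.0408). The difference between hsp-6 RNAi and empty vector was 2.21 (SE 0.57, 95% interval 0.96 to 3.47) and did not pass the test (limma adjusted p = 0.0658). That in the dve-1-labelled arrays was -1.61 (SE 0.57, limma adjusted p = 0.116).

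For fat-7 the adjusted p lay near the threshold and moved with the fit. Its fall in the hsp-6 plus hsf-1 arrays was called under 12 of 23 alternatives, with adjusted p up to 0.157. Without the 2 arrays that stood apart it was -2.25 (limma adjusted p = 0.0559), and it was -2.08 with hsp-6 RNAi replicates 1 and 3 averaged and then not called. The call was also lost without the filter on low values (limma adjusted p = 0.121), and without any 1 of empty vector replicate 3, hsp-6 RNAi replicates 1, 2 and 3, hsp-6 plus hsf-1 replicates 1 and 3, and dve-1-labelled replicate 1. The difference between hsp-6 RNAi and empty vector was called without empty vector replicate 2 (2.72, limma adjusted p = 0.0447), without dve-1-labelled replicate 2 (2.21, 0.0432) and without the 2 outlying arrays (2.21, 0.0277).

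**Figure D2:**
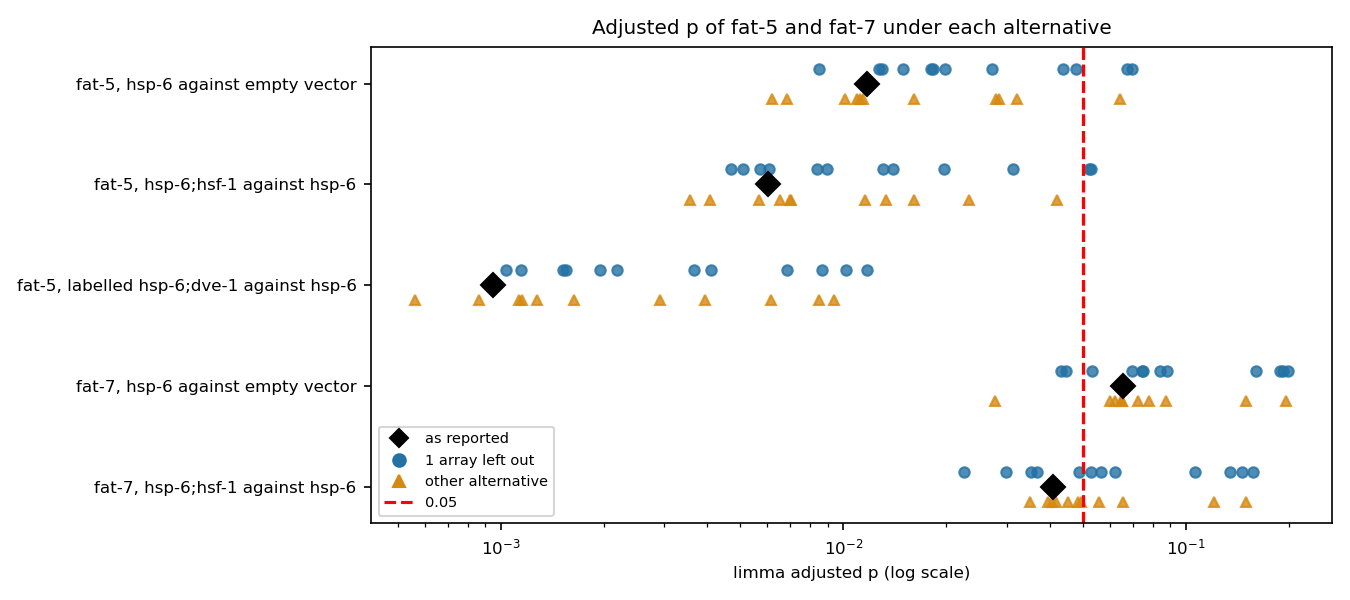
Adjusted p of fat-5 and fat-7 (x axis, log scale) as reported (diamonds), with 1 array left out (circles) and under the other alternatives (triangles), for 5 comparisons (y axis); the dashed line is 0.05. For fat-5 in the dve-1-labelled arrays all points lie left of the line, at 0.0117 or less, while those of fat-7 lie on both sides.

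fat-6, whose enzyme makes the same product as that of fat-7, had a smaller difference of the same sign. It read 12.08, 12.03 and 11.36 in the control arrays and 12.68, 12.28 and 12.65 in the hsp-6 RNAi arrays, and these groups did not overlap. It read 12.07, 11.89 and 12.67 in the hsp-6 plus hsf-1 arrays, and 11.74, 12.2 and 11.33 in the dve-1-labelled arrays. The difference between hsp-6 RNAi and empty vector was 0.71 (SE 0.27, 95% interval 0.11 to 1.31, limma adjusted p = 0.169), and that between the hsp-6 plus hsf-1 arrays and hsp-6 RNAi was -0.33 (SE 0.27, limma adjusted p = 0.492). In the dve-1-labelled arrays fat-6 differed from hsp-6 RNAi by -0.78 (SE 0.27, limma adjusted p = 0.115), with all 3 arrays below all 3. Without the 2 outlying arrays that difference was called (limma adjusted p = 0.0425). The suffix s_at of the fat-6 probe set is the maker's mark for probes that match more than one transcript. fat-6 and fat-7 are close paralogs, so signal shared between them is uncertain.

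Across all 10 genes, 1 rose and none fell with hsp-6 RNAi, where 1.97% of the tested probe sets rose and 0.771% fell. The arrays of the groups did not overlap for 5 of the 10 genes, all higher with hsp-6 RNAi, against 19.4% of tested probe sets that were higher and 20.2% that were lower without overlap. These were fat-2, fat-4, fat-5, fat-6 and fat-7. The differences of all 7 desaturases were above 0, and those of elo-2 and elo-5 below 0; the median over the 10 genes was 0.48 and over all tested probe sets -0.02. Without empty vector replicate 3 the median over the 10 genes was 0.17. At an unadjusted p below 0.05 there were 3 of the 10, fat-5, fat-6 and fat-7, against 21.6% of tested probe sets.

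Against hsp-6 RNAi, 2 of the 10 genes, fat-5 and fat-7, fell in the hsp-6 plus hsf-1 arrays and none rose, while 2.76% of tested probe sets fell and 2.91% rose. Arrays did not overlap for 5 genes, fat-5 and fat-7 lower and fat-3, elo-2 and elo-5 higher, against 21.5% of probe sets lower and 12.9% higher. In the dve-1-labelled arrays, 1 gene fell, fat-5, and none rose, while 2.96% of probe sets fell and 2.78% rose. There the arrays did not overlap for fat-5 and fat-6, both lower, against 19.9% of probe sets lower and 14% higher. The medians over the 10 genes were 0.09 and 0.04, and over all tested probe sets -0.10 and -0.06. With 1 array left out they ran from -0.19 to 0.22 and from -0.056 to 0.15, lowest without hsp-6 plus hsf-1 replicate 3 and dve-1-labelled replicate 2.

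**Figure D3:**
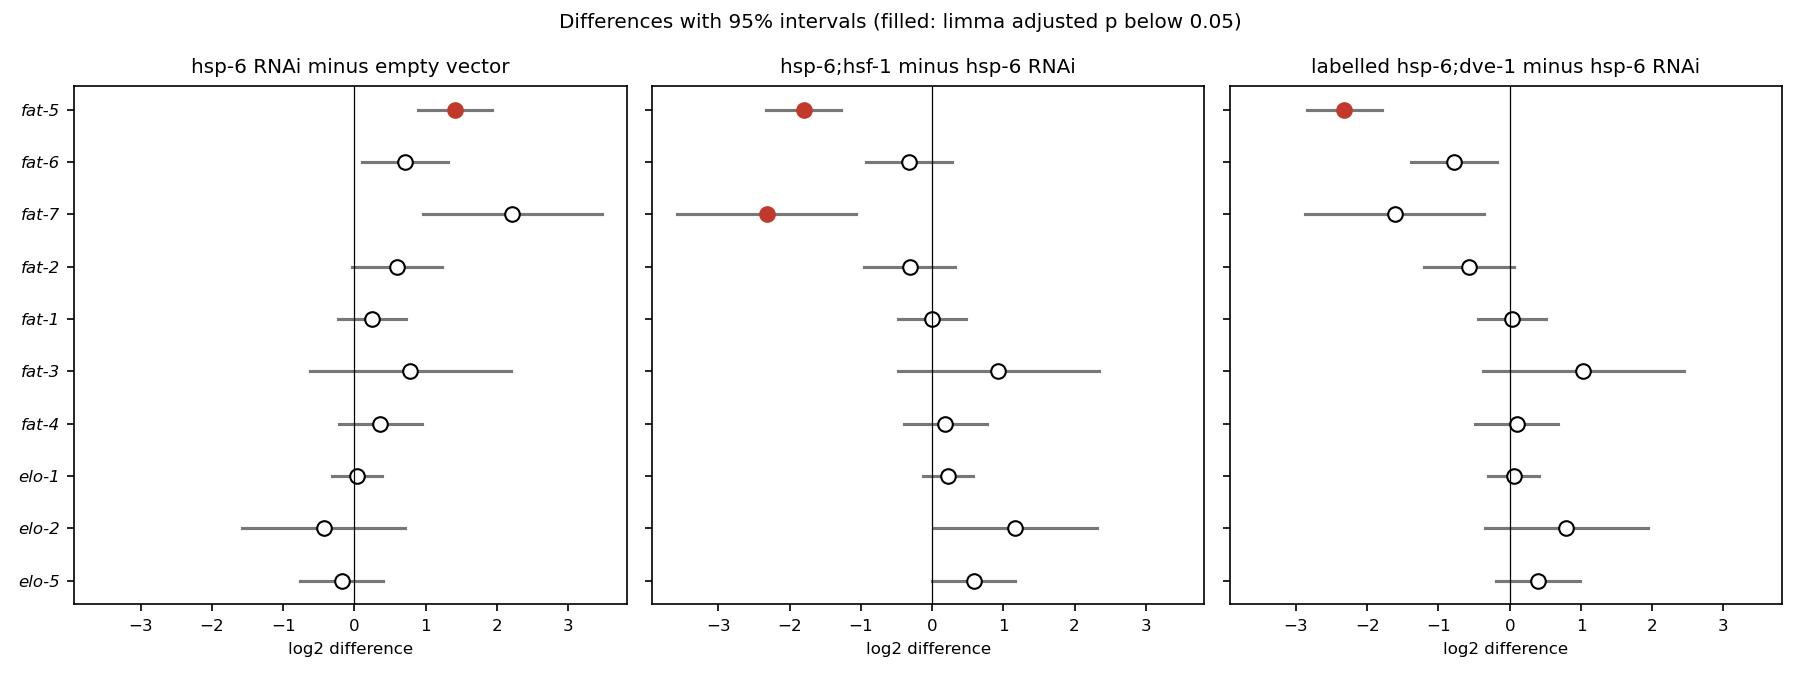
Log2 differences of the 10 genes (x axis) with limma's 95% intervals, for hsp-6 RNAi minus empty vector and for each double RNAi group minus hsp-6 RNAi; filled circles passed the test. fat-5 is filled in all 3 panels, at 1.41, -1.80 and -2.32, and fat-7 in the second, at -2.32.

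No member was called in the other 3 comparisons by limma. Against empty vector, the hsp-6 plus hsf-1 group had 0 of 10 genes called and 1 at an unadjusted p below 0.05, with 0% of all tested probe sets called (3593 probe sets, 29.8%, at an unadjusted p below 0.05). That total was 1046 without hsp-6 plus hsf-1 replicate 2, 316 without dve-1-labelled replicate 2 and 233 without dve-1-labelled replicate 3, with none of the 10 genes among them. The dve-1-labelled arrays had 0 of 10 called and 2 at an unadjusted p below 0.05, fat-3 and fat-5, with 2.27% of probe sets called and 26.8% at that unadjusted p. Between the double RNAi groups 0 of 10 were called, 0 at an unadjusted p below 0.05, with 0.232% of probe sets called and 2.3% at that unadjusted p. Arrays did not overlap for 0, 1 and 1 of the 10 genes in these comparisons, the 1 being fat-5 both times, against 36.9%, 32.4% and 3.67% of probe sets. The median over all tested probe sets was -0.13, -0.10 and 0.03.

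Among the desaturases of polyunsaturated fatty acids, none of the 4 passed the test in any comparison. fat-2, whose enzyme makes linoleic acid, read 12.78, 12.88 and 12.06 in the control arrays and 13.24, 12.94 and 13.34 in the hsp-6 RNAi arrays, which did not overlap. Their difference was 0.60 (SE 0.29, 95% interval -0.04 to 1.24, limma adjusted p = 0.26), and 0.34 without empty vector replicate 3. In the double RNAi groups fat-2 read 12.43, 12.79 and 13.35 in the hsp-6 plus hsf-1 arrays and 12.47, 13.1 and 12.23 in the dve-1-labelled arrays, and both overlapped hsp-6 RNAi. The omega-3 desaturase fat-1 had the narrowest range of the desaturases, with group means from 11.99 to 12.27 and SDs from 0.15 to 0.41. Its lowest array read 11.67 and its highest 12.71. fat-4, which acts after ELO-1, had group means from 12.22 ± 0.32 with empty vector to 12.77 ± 0.58 in the hsp-6 plus hsf-1 arrays.

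fat-3, which starts the path to the long polyunsaturated fatty acids, had the widest range of the 10 genes, 3.99 on the log2 scale, against a median of 1.48 for all tested probe sets. It read 11.27, 10.48 and 8.77 in the control arrays, and 11.02, 10.89 and 10.96 with hsp-6 RNAi. The levels were 11.9, 11.02 and 12.74 in the hsp-6 plus hsf-1 arrays and 12.36, 12.76 and 10.84 in the dve-1-labelled arrays. Both double RNAi groups averaged above empty vector, and each overlapped it. The differences were 1.72 (SE 0.64, limma adjusted p = 0.126) and 1.82 (SE 0.64, limma adjusted p = 0.121). Without the 2 outlying arrays they were 1.29 (0.306) and 1.43 (0.263), and without empty vector replicate 3 they were 1.02 and 1.12. The second was called without dve-1-labelled replicate 3 (2.39, limma adjusted p = 0.0463). Empty vector replicate 3 held the lowest value of fat-1, fat-2, fat-3 and fat-4 over all 12 arrays.

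Among the elongases, elo-2 and elo-5 had their lowest group mean with hsp-6 RNAi and their highest in the hsp-6 plus hsf-1 arrays, while elo-1 had the same order of means as fat-4, lowest with empty vector. elo-2 read 9.06, 10 and 10.01 in the control arrays, 9.36, 9.05 and 9.37 with hsp-6 RNAi, 9.72, 10.31 and 11.26 in the hsp-6 plus hsf-1 arrays, and 9.59, 11.32 and 9.26 in the dve-1-labelled arrays. The hsp-6 plus hsf-1 arrays lay above the hsp-6 RNAi arrays without overlap. The difference between them was 1.17 (SE 0.52, 95% interval 0.02 to 2.32, limma adjusted p = 0.195), and 0.76 without the 2 outlying arrays, which was not called either. elo-5 read 11.69, 12.66 and 11.99 in the control arrays and 11.88, 12.01 and 11.9 in the hsp-6 RNAi arrays. The levels were 12.06, 12.7 and 12.79 in the hsp-6 plus hsf-1 arrays, above hsp-6 RNAi without overlap, and 11.93, 12.57 and 12.48 in the dve-1-labelled arrays. That difference was 0.59 (SE 0.27, limma adjusted p = 0.2). The elo-5 probe set has the same suffix as that of fat-6.

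elo-1, which lengthens polyunsaturated fatty acids between the steps of FAT-3 and FAT-4, varied least of the 10 genes. Its group means ran from 12.12 to 12.38, and its 12 arrays spanned 0.75 on the log2 scale. Between hsp-6 RNAi and empty vector it differed by 0.04 (95% interval -0.32 to 0.39, limma adjusted p = 0.935).

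Several members were highest on the 2 arrays that stood apart. fat-1, fat-3 and elo-2 read higher on both of them (hsp-6 plus hsf-1 replicate 3 and dve-1-labelled replicate 2) than on any of the other 10 arrays. For elo-2 the 2 arrays read 11.26 and 11.32, against at most 10.31 elsewhere. fat-5 did not share this: it read 9.3 and 8.38 there, while the other 4 double RNAi arrays read 8.92 to 9.29. The 8.38, on dve-1-labelled replicate 2, was the lowest fat-5 value of all arrays. The calls of fat-5 against hsp-6 RNAi were kept without the 2 arrays. Among the group means, fat-2, fat-5, fat-6 and fat-7 were highest with hsp-6 RNAi, fat-1 and fat-3 in the dve-1-labelled arrays, and fat-4 and the 3 elongases in the hsp-6 plus hsf-1 arrays. Of neighbouring means in the order of each gene, none passed the test outside fat-5.

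Tissue markers differed between the double RNAi groups and hsp-6 RNAi, and some also between hsp-6 RNAi and empty vector. Of 9 sperm markers 8 were tested, and 6 rose in the hsp-6 plus hsf-1 arrays and 5 in the dve-1-labelled arrays against hsp-6 RNAi. Among all tested probe sets 2.91% rose and 2.76% fell in the first of these comparisons, and 2.78% rose and 2.96% fell in the second. The mean log2 level over the 9 sperm markers ran from 3.42 to 5.26 in the control arrays, from 3.41 to 4.36 with hsp-6 RNAi, from 6.77 to 8.57 in the hsp-6 plus hsf-1 arrays, and from 5.77 to 8.70 in the dve-1-labelled arrays. Only 1 of the 9 lay above log2 4 on all arrays, and spe-9 lay at or under it on all arrays. gsp-3 (2.16 to 2.92) and spe-11 (3.39 to 3.95) lay under log2 4 on all empty vector and hsp-6 RNAi arrays. They thus passed the filter only through the double RNAi groups. Signal shared within the msp and gsp families was not tested. The 7 muscle markers averaged 6.65 to 6.89 with hsp-6 RNAi, and 7.68 to 9.08 and 7.27 to 8.82 in the double RNAi groups, where 2 of 6 tested rose in each; unc-22 lay at or under log2 4 on all arrays. The 9 intestine markers, all above log2 4 on all arrays, averaged 8.53 to 9.23 in the control arrays and 9.11 to 9.23 with hsp-6 RNAi. They averaged 9.61 to 11.04 in the hsp-6 plus hsf-1 arrays and 9.19 to 10.68 in the dve-1-labelled arrays. Against hsp-6 RNAi, 3 of the 9 rose in the hsp-6 plus hsf-1 arrays (ifb-2, pept-1 and cpr-1), while 1 rose (cpr-1) and 1 fell (mtl-2) in the dve-1-labelled arrays. Of 8 oocyte and eggshell markers perm-2 fell in the hsp-6 plus hsf-1 arrays, and of 7 germline markers fbf-2 fell with hsp-6 RNAi against empty vector. No hypodermis, neuron or embryo marker was called in these 3 comparisons. The 7 germline markers averaged 10.94 to 11.17 in the control arrays and 10.28 to 10.52 with hsp-6 RNAi, without overlap. The neuron markers averaged 6.66 to 6.87 in the control arrays and 7.11 to 7.20 with hsp-6 RNAi, also without overlap. The 7 muscle markers averaged 6.92 to 7.15 in the control arrays, above hsp-6 RNAi. The means of the other marker lists overlapped between hsp-6 RNAi and empty vector. The intestine markers did not move together. Between hsp-6 RNAi and empty vector none of the 9 was called, with 6 differences above 0 and 3 below 0. pept-1 read 6.46 to 7.83 in the control arrays and 5.31 to 5.63 with hsp-6 RNAi, and cpr-1 read 10.12 to 11.1 and 9.69 to 9.93. ges-1, an intestinal esterase gene, read 7.42 to 7.65 in the control arrays and 8.97 to 9.08 with hsp-6 RNAi. It read 7.34, 7.77 and 9.02 in the hsp-6 plus hsf-1 arrays and 7.46, 8.99 and 7.48 in the dve-1-labelled arrays, so 4 of these 6 lay near the control arrays. For elt-7, an intestinal GATA factor gene, the control arrays gave 5.43, 5.54 and 6.28, and the hsp-6 RNAi arrays 7.13, 6.59 and 7.06. Its values were 5.69 to 6.14 on the same 4 double RNAi arrays. On the 2 arrays that stood apart elt-7 lay above every hsp-6 RNAi array. Those values were 7.74 (hsp-6 plus hsf-1 replicate 3) and 7.36 (dve-1-labelled replicate 2). The part of these markers in the levels of the 10 genes was not tested.

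**Figure D4:**
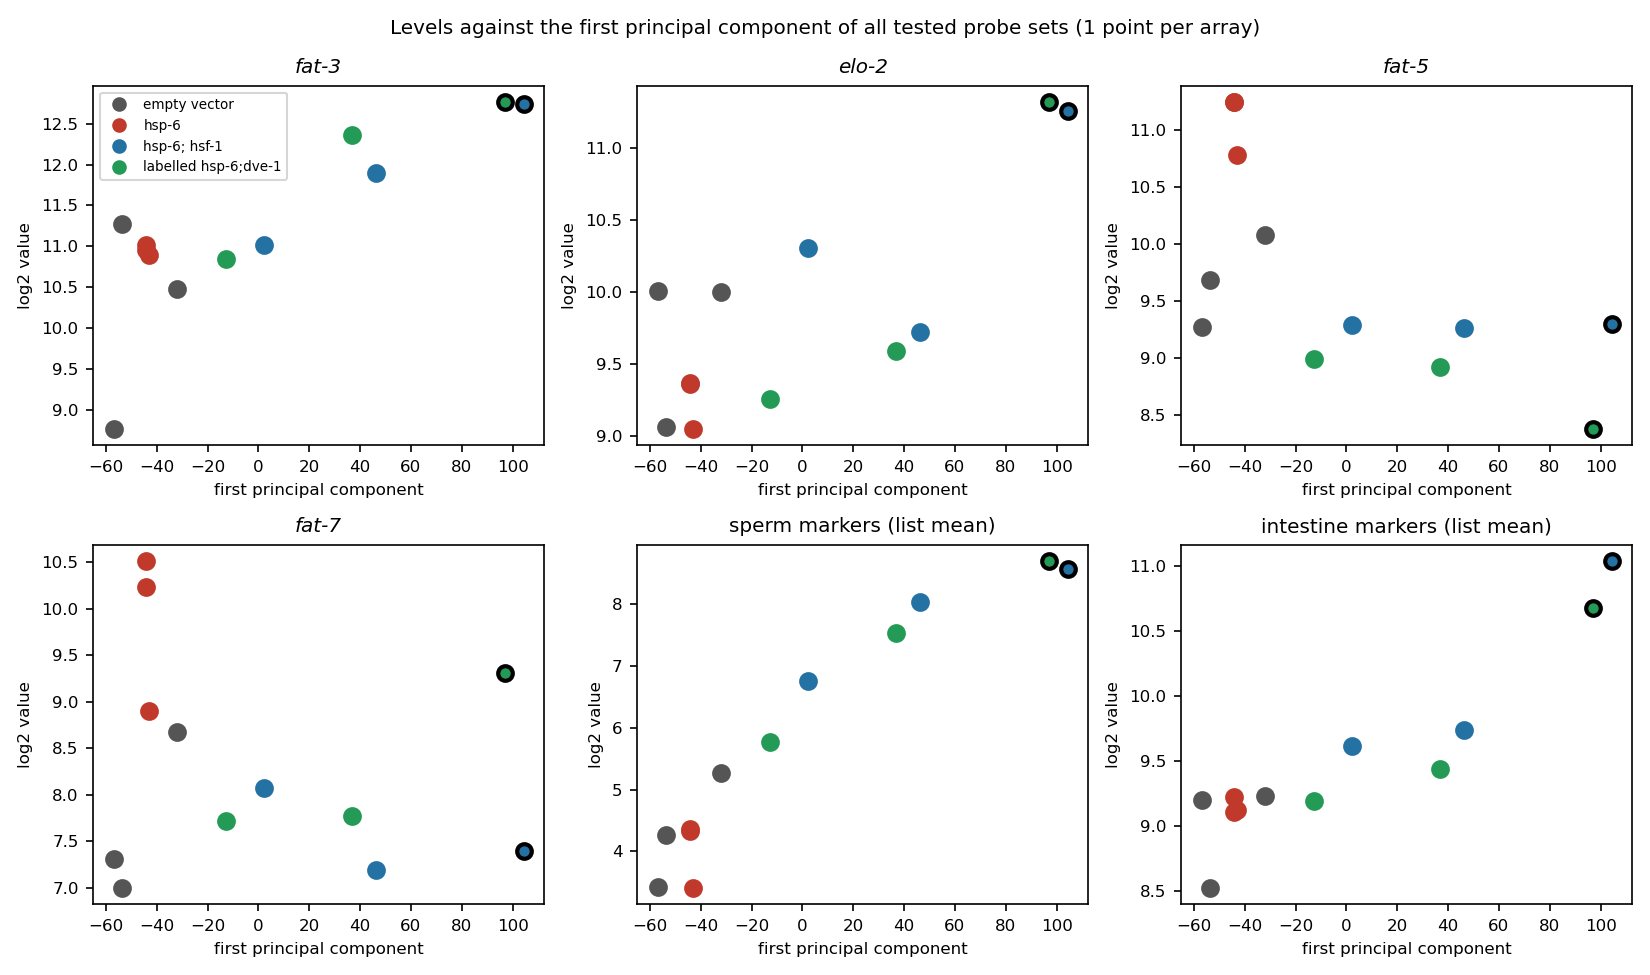
Levels of fat-3, elo-2, fat-5 and fat-7 and the mean level of the sperm and intestine markers (y axes, log2 value) against each array's position on the first principal component of all tested probe sets (x axis); colours give the RNAi group, and the 2 arrays farthest out are ringed. fat-3 and elo-2 are highest on the ringed arrays, at 11.26 or more, and fat-5 is highest on the 3 hsp-6 RNAi arrays.

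The likeness of the members over the 12 arrays was measured as the root mean square difference of log2 values after each gene was centred on its own mean, over 12 arrays that share groups and the spread between replicates. fat-2 and fat-6 were the closest pair, at 0.15, followed by fat-1 and fat-4, at 0.18. fat-6 and fat-7 differed by 0.95, fat-5 and fat-6 by 0.73, and fat-5 and fat-7 by 0.86. The measure is not scaled to each gene's own spread, which was 0.44 for fat-6 and 1.13 for fat-7 around their means, so genes of unequal spread cannot be close by it. fat-1 and fat-2, and also fat-3 and fat-4, are direct neighbours among protein-coding genes in the RefSeq annotation of assembly WBcel235. The first pair differed by 0.29 and the second by 0.77. fat-3 and fat-5 were the least alike, at 1.60.

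Outside the 10 genes, the probe sets most like fat-5 among 11451 with their own symbol were clc-24, at 0.23, and dhs-13, at 0.29, where fat-5 itself varied around its mean by 0.90. clc-24 read 7.72, 7.47 and 7.17 in the control arrays, 8.96, 8.25 and 8.92 with hsp-6 RNAi, and 6.49 to 7.27 over the double RNAi groups. dhs-13 lay under the filter level of log2 4 over the double RNAi groups, at 3.17 to 3.83. Those most like fat-7 were Y26D4A.21, at 0.49, and fpn-1.1, at 0.58, where fat-7 varied by 1.13. Y26D4A.21 read 4.65 to 5.18 with hsp-6 RNAi and 2.16 to 3.68 on all other arrays, under log2 4, so it passed the filter only through hsp-6 RNAi. fpn-1.1 read 6.96, 7.72 and 7.75 in the control arrays and 10.14, 9.2 and 10.38 in the hsp-6 RNAi arrays. It read 6.98, 7.42 and 8.34 in the hsp-6 plus hsf-1 arrays, and 8.7, 9.22 and 8.62 in the dve-1-labelled arrays, all above the control arrays. The 2 most like fat-3 were ZC443.3, at 0.22, and fbxa-24, at 0.27, and those most like elo-2 were alh-12 and mfsd-8.3, both at 0.29. mfsd-8.3 lay under log2 4 with empty vector and hsp-6 RNAi, at 2.56 to 3.46.

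The genes that supply substrates to these enzymes included 2 that fell in both double RNAi groups. acs-1, an acyl-CoA synthetase that activates branched-chain fatty acids, read 8.91, 10.01 and 10.41 in the control arrays and 10.28, 10.27 and 10.05 in the hsp-6 RNAi arrays. The levels were 8.78, 9.19 and 8.88 in the hsp-6 plus hsf-1 arrays and 8.86, 8.64 and 9.22 in the dve-1-labelled arrays, both below hsp-6 RNAi without overlap. The log2 differences of acs-1 from hsp-6 RNAi were -1.25 (SE 0.33, limma adjusted p = 0.0487) and -1.29 (SE 0.33, limma adjusted p = 0.0431). Its other probe set gave -1.50 and -1.70, both called. acly-1, an ATP citrate lyase, which makes cytosolic acetyl-CoA, read 9.98, 10.26 and 9.94 with hsp-6 RNAi, 9.01, 9.57 and 8.99 in the hsp-6 plus hsf-1 arrays, and 8.87, 8.92 and 9.03 in the dve-1-labelled arrays. All 6 double RNAi arrays lay below the hsp-6 RNAi arrays, and the log2 differences of acly-1 were -0.87 (SE 0.19, limma adjusted p = 0.0281) and -1.12 (SE 0.19, limma adjusted p = 0.0112). Its other probe set gave -0.94, not called, and -1.13, called. Of the 5 genes tested for precursor supply, 2 fell and none rose in each of these comparisons. Among all tested probe sets 2.76% and 2.96% fell, and 2.91% and 2.78% rose. The medians of the 5 were -0.49 and -0.57 (-0.10 and -0.06 over all tested probe sets), and none passed with hsp-6 RNAi against empty vector (median 0.12). Fatty acid synthase fasn-1 differed by -0.89 between hsp-6 RNAi and empty vector (limma adjusted p = 0.114), and by -0.75 on its other probe set. Without empty vector replicate 3 the first was -1.25 and was called (limma adjusted p = 0.0285). The double RNAi groups differed from hsp-6 RNAi by 0.14 and 0.23 for fasn-1, and by -0.08 and -0.12 on the other probe set, none of them called. acly-1 was also lower than with empty vector in the dve-1-labelled arrays (-0.85, limma adjusted p = 0.0498), a call kept under 7 of 23 alternatives. That call was lost with hsp-6 RNAi replicates 1 and 3 averaged (limma adjusted p = 0.0870) and without the 2 outlying arrays (0.0668). The other acly-1 probe set gave -0.62 in that comparison, with overlap, and was not called (limma adjusted p = 0.163). Without hsp-6 RNAi replicate 1, 2 or 3 neither gene was called in either double RNAi group against hsp-6 RNAi, with adjusted p from 0.0526 to 0.160. The hsp-6 plus hsf-1 calls of both genes were also lost without replicate 1 or 3 of that group, and the others without dve-1-labelled replicate 1. The acs-1 calls were lost without the filter on low values, without the intensity trend and without empty vector replicate 2 as well, that in the hsp-6 plus hsf-1 arrays also without dve-1-labelled replicate 1, and that in the dve-1-labelled arrays also without replicate 2 of its group or hsp-6 plus hsf-1 replicate 1. With hsp-6 RNAi replicates 1 and 3 averaged, and equally without the 2 outlying arrays, only the acly-1 difference between the dve-1-labelled arrays and hsp-6 RNAi was called. The acly-1 call in the hsp-6 plus hsf-1 arrays was also lost without the filter (limma adjusted p = 0.0504) and with only the compared groups in the fit (0.0781). The acs-1 call there was also lost with quantile normalization (0.0537) and with low values set to log2 4 (0.0527).

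Of 10 regulators of desaturase expression, 1 fell in each double RNAi group against hsp-6 RNAi and none rose. Among all tested probe sets 2.76% fell and 2.91% rose in the hsp-6 plus hsf-1 arrays, and 2.96% fell and 2.78% rose in the dve-1-labelled arrays. The regulator was acdh-11, an acyl-CoA dehydrogenase known in C. elegans to restrain fat-7 expression. It read 8.11, 8.03 and 8.13 in the control arrays, 8.73, 8.76 and 8.84 with hsp-6 RNAi, 7.97, 7.95 and 8.15 in the hsp-6 plus hsf-1 arrays, and 8.05, 7.74 and 8.03 in the dve-1-labelled arrays. The hsp-6 RNAi arrays lay above all others. The log2 differences were -0.75 (SE 0.17, limma adjusted p = 0.0283) and -0.84 (SE 0.17, limma adjusted p = 0.0197) against hsp-6 RNAi. Between hsp-6 RNAi and empty vector the difference was 0.69 (SE 0.17, limma adjusted p = 0.0537), and it was called under 8 of 23 alternatives. The adjusted p there ran from 0.0105, without the 2 outlying arrays, to 0.182. Calls were also gained with no filter (limma adjusted p = 0.0143), quantile normalization (0.0471) and array medians set equal (0.0397). Neither fall was called with hsp-6 RNAi replicates 1 and 3 averaged (limma adjusted p = 0.106 and 0.0867) or with any 1 hsp-6 RNAi array left out. The first was also lost without hsp-6 plus hsf-1 replicate 1, and the second without dve-1-labelled replicate 1 or 2. Both were lost with only the compared groups in the fit (limma adjusted p = 0.0667 and 0.0548).

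The transcription factor genes sbp-1, nhr-49 and nhr-80 and the Mediator subunit gene mdt-15 did not pass the test. With hsp-6 RNAi against empty vector, sbp-1 differed by 0.50 (limma adjusted p = 0.309), nhr-49 by -0.19 (0.497), nhr-80 by 0.56 (0.561) and mdt-15 by -0.11 (0.871). The other nhr-49 probe set went the other way, with a difference of 0.40 and no overlap of the arrays (limma adjusted p = 0.21). Against hsp-6 RNAi, sbp-1 differed by -0.97 in the dve-1-labelled arrays (limma adjusted p = 0.0559), where it read 6.92, 7.21 and 6.81 against 7.85, 7.75 and 8.27, without overlap. The median over the 10 regulators was -0.07 for hsp-6 RNAi against empty vector, and -0.23 and -0.28 in the double RNAi groups against hsp-6 RNAi.

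Of the other elongases, 5 were on the array and 3 passed the filter, and none was called in these 3 comparisons (medians -0.04, 0.18 and 0.14). elo-7 and elo-9 did not pass it. elo-4 read 4.5, 4.62 and 4.36 in the control arrays and 5.54, 5.85 and 5.43 in the hsp-6 RNAi arrays, without overlap (limma adjusted p = 0.0801). It read 5.8, 5.49 and 6.06 in the hsp-6 plus hsf-1 arrays and 5.43, 6.42 and 5.4 in the dve-1-labelled arrays, also above the control arrays. elo-6, which works with ELO-5 on branched-chain fatty acids, averaged 12.04 in the control arrays, 11.44 with hsp-6 RNAi, and 12.28 and 11.83 in the double RNAi groups. Of 6 partners in elongation and desaturation, 1 fell, the cytochrome b5 reductase gene hpo-19 in the dve-1-labelled arrays (-0.57, SE 0.14, limma adjusted p = 0.0441), where 2.96% of tested probe sets fell. The medians of the 6 were 0.10, 0.05 and 0.09 in the 3 comparisons. The hpo-19 call was kept under 10 of 23 alternatives. It was lost without any 1 of the 3 hsp-6 RNAi or the 3 dve-1-labelled arrays, empty vector replicate 2 or hsp-6 plus hsf-1 replicate 1. It was also lost without the filter (limma adjusted p = 0.0593), without the intensity trend (0.0786) and with the compared groups alone (0.0567). The same held with hsp-6 RNAi replicates 1 and 3 averaged (limma adjusted p = 0.122) and without the 2 outlying arrays (0.0599). Of the 5 tested genes that oxygenate polyunsaturated fatty acids or open their epoxides, none passed. All 5 differences between hsp-6 RNAi and empty vector were above 0 (median 0.52, against -0.02 over all tested probe sets). The mean level over this list, of which 6 genes were on the array, was lowest on empty vector replicate 3. It was 4.74 there, against 5.46 and 5.78 on the other empty vector arrays.

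**Figure D5:**
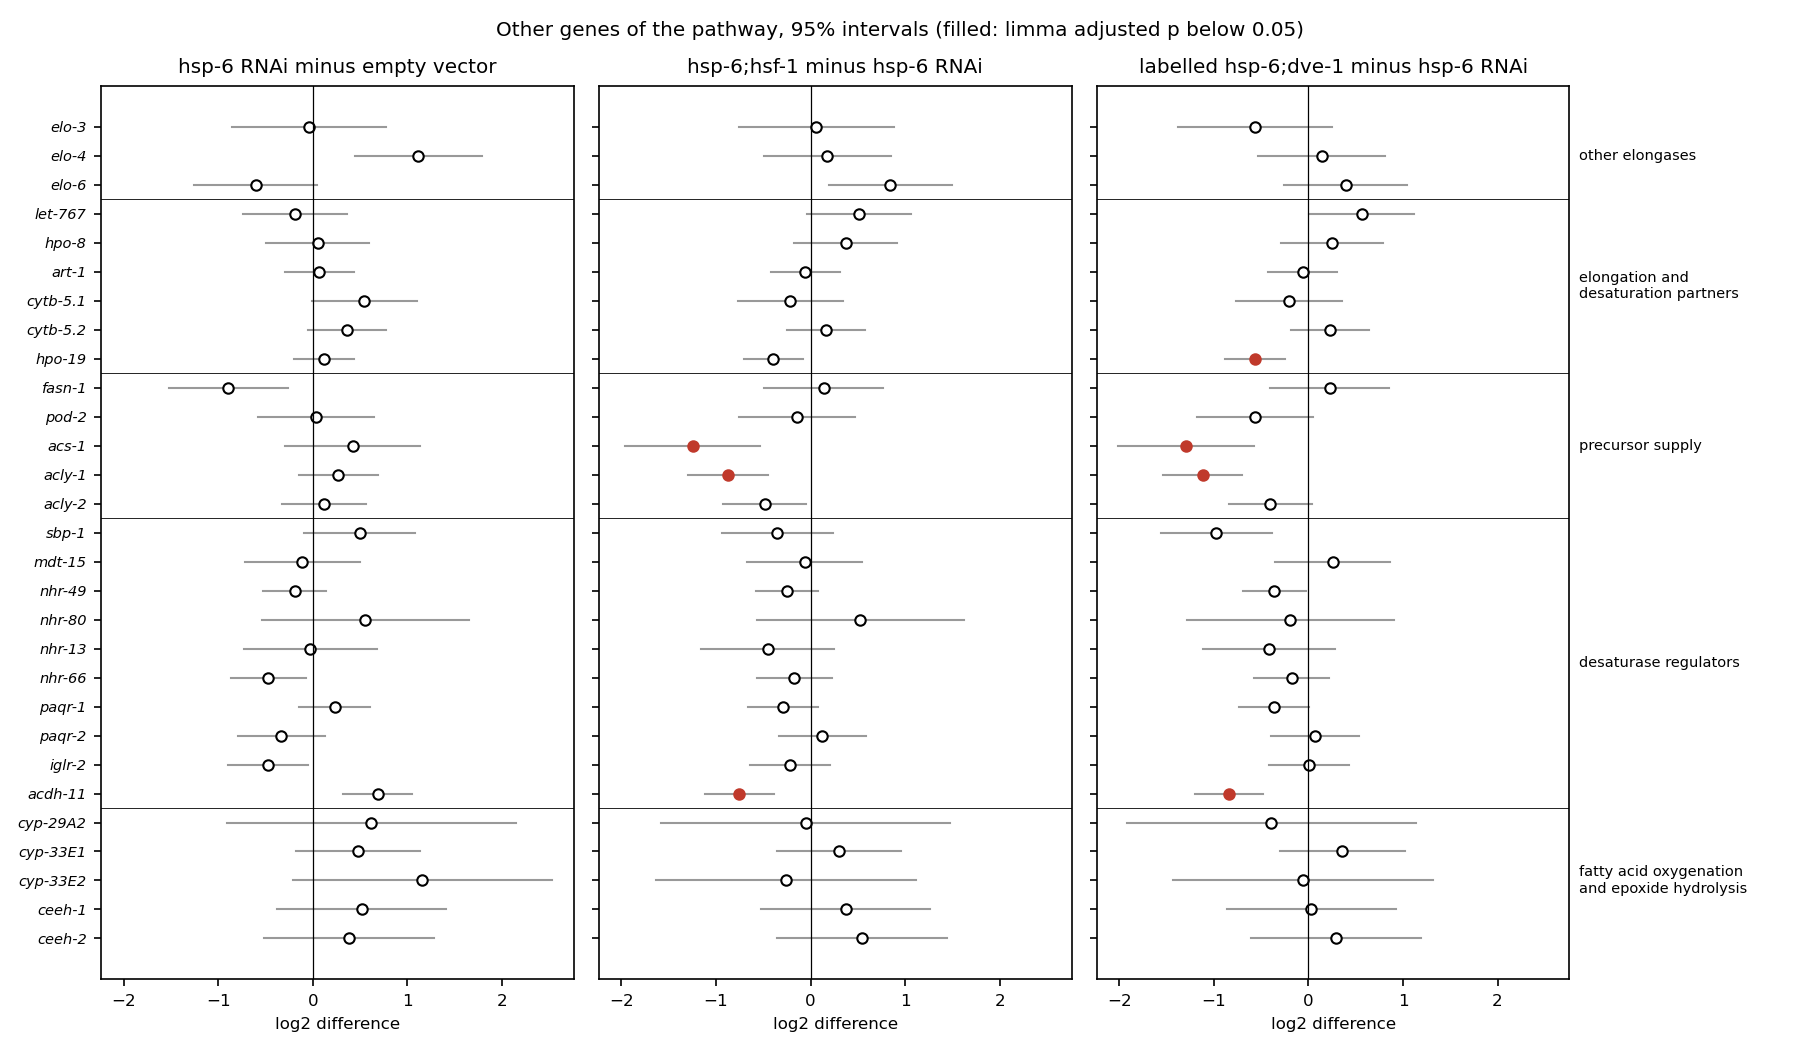
Log2 differences (x axis) with limma's 95% intervals for the tested genes of the other lists, in the same 3 comparisons; filled circles passed the test. acs-1, acly-1 and acdh-11 are filled on the negative side in both double RNAi panels, hpo-19 in the last, and none in the first.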

How the data were processed

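Total RNA of 12 samples was measured on Affymetrix 3' expression arrays. Per the labels and the submitters' processing notes, which name GCOS 1.4 and GCRMA, the authors deposited log2 values, background-corrected, normalized and summarised per probe set; their settings were not stated in the sources used here. Arrays have no count depth, and no raw intensities were used here. Gene names came from the annotation of the array: 20766 probe sets carried 1 symbol, 887 several and 895 none, and 77 controls were left out. Probe sets above log2 4 in at least 3 arrays were tested (12057). limma 3.58.1 (R 4.3.3) fitted 4 group means to all 12 arrays with an intensity trend, and 6 comparisons were made, two-sided. The script was tested on simulated data. For pathway genes on several probe sets, that with the highest mean was used. Named genes are the 10 members, the RNAi targets, called pathway genes, and the 2 probe sets most like a member; fasn-1, pod-2, sbp-1, nhr-49, nhr-80, mdt-15 and paqr-2 could be named whatever their result. elo-4, elo-6, elo-7, elo-9 and named markers were picked with their values known. Members and lists were chosen with earlier results of these data known. Figures used matplotlib 3.10.9 in Python 3.11.15.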

Additional observations from a re-analysis of the deposited data

How the results depend on the processing

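Apart from leaving out each array, 9 other choices were varied: the filter (none, or log2 6), the normalization (quantile, or array medians set equal), the variance model (no trend, or robust), a floor at log2 4, the fit to the compared groups, and the replicate block. Averaging hsp-6 RNAi replicates 1 and 3, leaving out the 2 outlying arrays, and running the pathway genes through all settings were added after seeing the data. Over 78 results these gave 1793 values, of which 1634 kept direction and side of the threshold, 98 lost the call, 17 gained it and 44 turned direction, 0 of these with an adjusted p below 0.05. Limits are the 3 arrays a group, the unstated origin of replicates, the dve-1 label, and the kept hsp-6 transcript in the double RNAi groups. Where not stated, the cause of a lost or gained call was not tested.

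Of the 10 genes, 1 was called with hsp-6 RNAi against empty vector, 0 with replicates 1 and 3 averaged, 2 without the outlying arrays, and 0 to 2 with 1 array left out. In the hsp-6 plus hsf-1 group against hsp-6, 2 were called, 1 with no filter, 1 with the replicate block, 1 with replicates averaged, 1 without the outlying arrays, and 0 to 2 with 1 array left out. For the dve-1-labelled group against hsp-6 the count was 1, and 2 without the outlying arrays. Against empty vector the dve-1-labelled group had 0, 1 with medians set equal, and 0 to 2 with 1 array left out. Fewer arrays also leave fewer degrees of freedom. Replicate numbers did not pair the arrays throughout: over 18 same-numbered pairs deviations correlated from -0.76 to 0.61, and 6 of 12 arrays correlated best with their own number. Across the double RNAi groups, arrays with crossed numbers were alike. hsp-6 plus hsf-1 replicate 2 correlated at 0.85 with dve-1-labelled replicate 3, and hsp-6 plus hsf-1 replicate 3 at 0.84 with dve-1-labelled replicate 2. The fits took no account of these crossed pairs, and the replicate block does not match them. The 6 pairs of replicate 1 ran from 0.098 to 0.61, and its 4 arrays correlated best with their own number; the lowest pairs of replicates 2 and 3 were at -0.74 and -0.76. The replicate block lost fat-7 in the hsp-6 plus hsf-1 group against hsp-6 (limma adjusted p = 0.0657) and took the calls there from 684 to 327; no other call on a member changed. Among pathway genes the block lost both acs-1 falls against hsp-6 (0.0737 and 0.0617), that of acdh-11 in the hsp-6 plus hsf-1 group (0.0542) and that of acly-1 in the dve-1-labelled group against empty vector (0.0707).

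Directions turned only where a difference was not called. With medians set equal fat-1 in the hsp-6 plus hsf-1 group against hsp-6 was 0.0092, and with quantile normalization fat-1 in the dve-1-labelled group against hsp-6 was -0.0051 and fat-2 in the dve-1-labelled group against empty vector -0.029. With replicates averaged fat-1 in the dve-1-labelled group against hsp-6 was -0.0024. Without the outlying arrays fat-4 was -0.15 in the hsp-6 plus hsf-1 group against hsp-6, fat-1 -0.094 and elo-1 -0.019 in the dve-1-labelled group against hsp-6, fat-2 -0.22 and elo-2 -0.27 in the dve-1-labelled group against empty vector, and fat-4 0.20 in the dve-1-labelled group against the hsp-6 plus hsf-1 group. With 1 array left out, elo-1 ran from -0.085 to 0.17, elo-5 from -0.39 to 0.092, acs-1 from -0.010 to 0.74 and mdt-15 from -0.37 to 0.058 in hsp-6 against empty vector. In the hsp-6 plus hsf-1 group against hsp-6, fat-1 ran from -0.24 to 0.12 and fat-4 from -0.15 to 0.37. In the dve-1-labelled group against hsp-6, fat-1 ran from -0.094 to 0.15, fat-4 from -0.031 to 0.27 and elo-1 from -0.019 to 0.16. Against empty vector fat-7 ran from -0.44 to 0.40 in the hsp-6 plus hsf-1 group, and in the dve-1-labelled group fat-2 from -0.23 to 0.21, fat-6 from -0.30 to 0.14, elo-1 from -0.029 to 0.23 and elo-2 from -0.27 to 0.77. Between the double RNAi groups fat-1 ran from -0.10 to 0.27, fat-3 from -0.33 to 0.67, fat-4 from -0.27 to 0.24, elo-2 from -1.01 to 0.041 and elo-5 from -0.42 to 0.011.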
